A study of Mus musculus with 3 samples.

Results

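The MiT/TFE family of transcription factors consists of 4 genes in the mouse, *Mitf*, *Tfe3*, *Tfeb* and *Tfec*, and all 4 were found by symbol among the 22698 Ensembl genes measured in melan-a cells. All but *Mitf* carry older symbols in the annotation, *Tcfe3*, *Tcfeb* and *Tcfec*, and were matched through RefSeq synonyms. Melan-a is an immortalized line of mouse melanocytes on the C57BL/6J background, and the labels give its origin as Ink4a-ARF-/- mice. The only group was untreated melan-a cells, sequenced as 3 bioreplicates labelled 1, 3 and 4, so no second condition or second line stands beside it. All of the cells were grown with 10% fetal bovine serum, 200 nM of the phorbol ester TPA, which activates protein kinase C, and 200 pM cholera toxin, which raises cAMP. *Cdkn2a*, the gene that encodes Ink4a and ARF, was listed at 19.24, 16.49 and 24.32 FPKM in replicates 1, 3 and 4. The labels do not give which part of that gene was deleted, so its level does not check the genotype.

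MiT/TFE proteins are basic helix-loop-helix leucine zipper factors that bind DNA as dimers with themselves or with each other, at the E-box CACGTG and at the related M-box, whose core is CATGTG. MITF is the central regulator of the melanocyte lineage, and its melanocyte isoform is made from the most downstream of several alternative promoters of the gene. TFEB and TFE3 are known for driving lysosomal and autophagy genes, and are held in the cytoplasm when mTORC1 is active at the lysosome. TFEC is known mainly from macrophages and the retinal pigment epithelium.

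The promoter windows of the members are shown first for the melanocyte start of *Mitf*, because the medium of these cells contained cholera toxin and that start is known to respond to cAMP through CREB. RefSeq windows (GRCm38.p6, 250 bases before to 50 after a start) were available for 9 starts of the 4 genes, 3 for *Mitf*, 2 for *Tfe3*, 3 for *Tfeb* and 1 for *Tfec*. Each of the 9 matched mm9 exactly and once on its chromosome. The 250 bases before the most downstream *Mitf* start, on the plus strand of mm9 at chr6:97941527-97941776, read as follows, with the cAMP response element TGACGTCA in capitals.
Mitf, most downstream start: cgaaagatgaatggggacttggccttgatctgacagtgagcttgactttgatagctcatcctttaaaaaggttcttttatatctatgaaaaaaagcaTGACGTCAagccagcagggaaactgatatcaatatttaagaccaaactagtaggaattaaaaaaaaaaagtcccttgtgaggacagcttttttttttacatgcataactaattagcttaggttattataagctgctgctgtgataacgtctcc
The element begins at position -153 relative to the start. Of the 9 windows, this was the 1 that held TGACGTCA, which occurred in 1.79% of all 32851 RefSeq windows. Neither CACGTG nor CATGTG, searched on both strands, was found in any of the 9.

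The letters that the family binds are shown in the promoters of target genes that were expressed in the same libraries. They were taken from the genes with the highest mean FPKM among pigment targets with an M-box or an E-box and lysosomal targets with an E-box, and capitals mark the motif in windows of 30 bases on the strand of the gene (GRCm38.p6).
Tyrp1, chr4:80834155-80834184, plus strand, M-box at -46: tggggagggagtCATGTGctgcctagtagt
Dct, chr14:118052461-118052490, minus strand, M-box core in reverse at -232: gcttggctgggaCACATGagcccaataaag
Tyr, chr7:87493516-87493545, minus strand, M-box at -21: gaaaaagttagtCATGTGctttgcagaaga
Slc24a5, chr2:125068102-125068131, plus strand, M-box core in reverse at -13: aaggagactgctCACATGattcagcataag
Mlph, chr1:90915040-90915069, plus strand, E-box at -48: tcaggagtagccCACGTGatctgagccgca
Ctsd, chr7:142387908-142387937, minus strand, E-box at -98: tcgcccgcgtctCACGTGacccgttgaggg
Lamp1, chr8:13159088-13159117, plus strand, E-box at -61: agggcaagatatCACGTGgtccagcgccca
Atp6v0d1, chr8:105566050-105566079, minus strand, E-box at -3: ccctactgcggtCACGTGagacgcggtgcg
Ctsa, chr2:164833749-164833778, plus strand, E-box at -12: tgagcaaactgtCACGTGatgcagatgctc
The M-box core was in the window of 7 of 12 pigment target genes with an entry (58.3%), against 15.9% of all 27025 genes. The E-box was in the window of 13 of 28 lysosomal target genes (46.4%), against 8.09% of all genes. Its extension TCACGTGA was in 7 of those 28 (25%) and in 1.12% of all genes. The M-box core was in 5 of the 28 lysosomal genes (17.9%), and the E-box in 3 of the 12 pigment genes (25%). Such motifs were among the reasons that these genes became known as targets, so the shares describe the lists and are not independent evidence of binding.

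*Tfe3* and *Mitf* were the 2 most abundant members in melan-a cells, and *Tfec* was near the limit of detection. In the deposited values *Tfeb* lay about 4 times below *Tfe3*. At 1 FPKM or more in all 3 replicates were 3 of the 4 members, against 44.1% of all genes. FPKM relates the reads of a gene to its length and to the size of the library, so that levels of different genes can be set side by side. For the family as a whole, replicates 1, 3 and 4 held 59.54, 58.93 and 56.11 FPKM, a mean of 58.2 ± 1.83 (SD, n = 3). The composition of this sum differed more between replicates than the sum did.

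*Mitf* (ENSMUSG00000035158, plus strand, chr6:97757052-97971352 in mm9) was measured at 22.27, 17.4 and 26.77 FPKM in replicates 1, 3 and 4. Its mean of 22.1 ± 4.69 FPKM (SD, n = 3) ranked 2978 of 22698 genes, and an estimated 7482, 5097 and 11046 reads stood behind the 3 values. Its lowest value was in replicate 3 and its highest in replicate 4.

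*Tfe3* (ENSMUSG00000000134, plus strand, chrX:7339686-7352328) encodes a broadly expressed member. Its 3 values, in the same order, were 29.55, 32.92 and 23.74 FPKM. The mean was 28.7 ± 4.64 FPKM (SD, n = 3), at rank 2368, from an estimated 14750, 14329 and 14554 reads. Here replicate 3 was the highest and replicate 4 the lowest, the reverse of *Mitf*. The ranges of *Tfe3* (23.74 to 32.92 FPKM) and *Mitf* (17.4 to 26.77 FPKM) overlapped.

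*Tfeb* (ENSMUSG00000023990, plus strand, chr17:47873979-47929368) encodes the factor best known as a regulator of lysosome formation. Its values were 7.53, 8.54 and 5.36 FPKM in replicates 1, 3 and 4, with a mean of 7.14 ± 1.62 (SD, n = 3) and rank 6385. An estimated 2301, 2275 and 2012 reads lay behind them. It took the same order of replicates as *Tfe3*, and its highest value lay below the lowest of *Mitf* and *Tfe3*.

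*Tfec* (ENSMUSG00000029553, minus strand, chr6:16783381-16848441) was listed at 0.19, 0.07 and 0.24 FPKM in replicates 1, 3 and 4, a mean of 0.17 ± 0.087 (SD, n = 3) at rank 11732. These values correspond to an estimated 18, 6 and 28 reads. The value of 3 reads on this gene lay between 0.025 FPKM in replicate 4 and 0.036 in replicate 3, so all 3 libraries held more than that. Exact Poisson 95% intervals, which cover counting error only, ran from 0.111 to 0.297 FPKM for replicate 1, from 0.026 to 0.156 for replicate 3 and from 0.158 to 0.344 for replicate 4. In these deposited values the intervals of replicates 3 and 4 fell just short of overlapping, at 0.156 against 0.158 FPKM. That of replicate 1 overlapped both. In a bulk sample, transcripts in a few cells and a low level in all cells cannot be told apart.

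**Figure D1:**
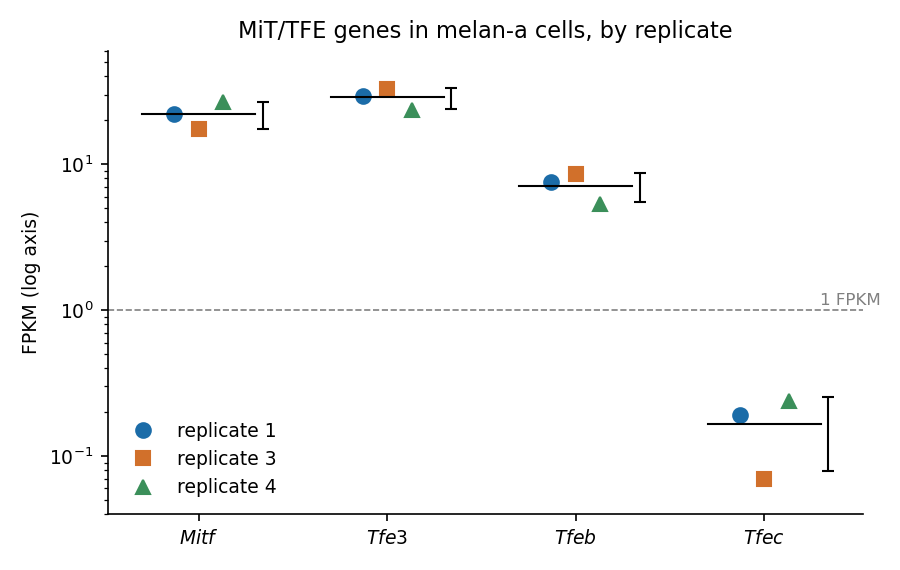
FPKM of the 4 MiT/TFE genes (y axis, log scale) in each melan-a replicate (points), with the mean (horizontal line) and SD (bar, n = 3). *Mitf* and *Tfec* were lowest in replicate 3 and highest in replicate 4, and *Tfe3* and *Tfeb* the other way round, with *Tfec* at 0.07 to 0.24 FPKM below the dashed line at 1 FPKM.

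Ratios between paralogs were then taken within each library, where both genes share the same cells and the same depth. *Mitf* stood at 0.754 of *Tfe3* in replicate 1, 0.529 in replicate 3 and 1.13 in replicate 4. *Tfe3* was thus the higher gene in 2 of 3 libraries and *Mitf* in the other. The mean log2 ratio, computed on FPKM + 0.1, was -0.38 ± 0.54 (SD, n = 3; exact two-sided sign-flip permutation test, p = 0.5, adjusted p = 0.5 over 6 pairs). The order of these 2 neighbours was therefore within their spread. Without replicate 3 the mean log2 ratio was -0.12, and without replicate 4 it was -0.66.

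The other 5 pairs had the same sign in every library. *Mitf* was 2.96 times *Tfeb* in replicate 1, 2.04 times in replicate 3 and 4.99 times in replicate 4, a mean log2 ratio of 1.62 ± 0.64 (SD). *Tfe3* was 3.92, 3.85 and 4.43 times *Tfeb*, a mean log2 ratio of 2.01 ± 0.10 (SD). Between replicates this was the steadiest of the 6 ratios. The size of both ratios to *Tfeb* depended on the gene length, as given below. The 3 pairs with *Tfec* had mean log2 ratios of 6.42 ± 0.23 for *Mitf*, 6.80 ± 0.74 for *Tfe3* and 4.80 ± 0.83 for *Tfeb* (SD, n = 3), on a scale where the added 0.1 FPKM lowers the ratio to a gene as rare as *Tfec*. The size of these 3 ratios depended on that choice. With 1 FPKM added they were 4.29, 4.66 and 2.79, and with 0.01 FPKM added 7.10, 7.49 and 5.47. Divided by the longest protein-coding transcript, the ratio of *Tfe3* to *Tfec* was 8.25. Each of the 5 pairs gave p = 0.25 in the exact sign-flip permutation test (adjusted p = 0.3), which is the smallest p that 3 replicates allow.

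As shares of the summed FPKM, *Tfe3* made up 49.3 ± 6.78%, *Mitf* 38.2 ± 9.12%, *Tfeb* 12.2 ± 2.50% and *Tfec* 0.289 ± 0.157% (SD, n = 3). The share of *Mitf* ran from 29.5% in replicate 3 to 47.7% in replicate 4. In the same libraries the share of *Tfe3* was 55.9% and 42.3%.

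The opposite order of replicates for *Mitf* and *Tfe3* went together with the base composition of their transcripts. The longest protein-coding transcript has a GC content of 43.4% for *Mitf*, 44.6% for *Tfec*, 57.3% for *Tfe3* and 63.2% for *Tfeb*. The log2 ratio of replicate 3 to replicate 4 was -0.62 for *Mitf* and 0.47 for *Tfe3*. For genes at 1 FPKM or more with a GC content within 1 percentage point, its median was -0.43 around *Mitf* (797 genes, quartiles -0.67 and -0.21) and 0.38 around *Tfe3* (905 genes, quartiles 0.23 and 0.52). *Tfeb*, at 0.66, stood beside a median of 0.63 over 107 genes of like GC content. *Tfec*, at -1 on log2(FPKM + 0.1), lay below the median of -0.35 over 896 genes and below their lower quartile of -0.58. Its ratio rests on an estimated 6 reads in replicate 3 and 28 in replicate 4, and the 896 genes were all at higher levels. For 3 of the 4 members, then, replicates 3 and 4 differed by about as much as in other genes of the same composition.

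**Figure D2:**
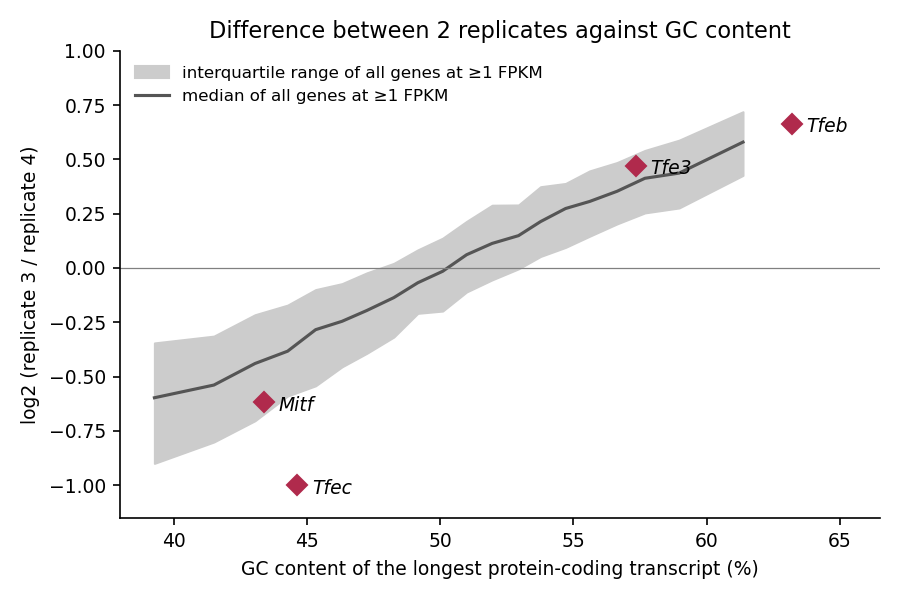
The log2 ratio of replicate 3 to replicate 4 (y axis) against the GC content of the longest protein-coding transcript in percent (x axis), as the median (line) and interquartile range (band) of genes at 1 FPKM or more in 20 bins, with the 4 members as diamonds. The median rises from -0.60 in the lowest bin to 0.58 in the highest, *Mitf* and *Tfe3* lie inside the band, *Tfeb* lies to the right of the last bin and *Tfec* lies below the band.

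Each library was therefore also divided by the median deviation of genes of like GC content. After this step *Mitf* was at 22.4, 20.6 and 23.2 FPKM and *Tfe3* at 29.2, 29.1 and 28.0 FPKM in replicates 1, 3 and 4, and the 2 ranges no longer overlapped. The mean log2 ratio of *Mitf* to *Tfe3* stayed at -0.38, because the correction is relative to the mean of replicates and nearly keeps it. The SD of this ratio fell from 0.54 to 0.12. *Tfe3* was the higher gene in 3 of 3 libraries (exact sign-flip permutation test, p = 0.25, the smallest possible). A GC effect shared by all 3 libraries would remain, so this step does not settle the order of the 2 genes. For *Tfe3* to *Tfeb* the log2 ratio became 1.98, 1.99 and 2.02 in replicates 1, 3 and 4. *Tfeb* was at 7.30, 7.24 and 6.83 FPKM. *Tfec* kept its low value in replicate 3, at 0.081 FPKM against 0.191 and 0.212 in replicates 1 and 4. These rest on an estimated 6, 18 and 28 reads, and no counting intervals were computed for corrected values.

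**Figure D3:**
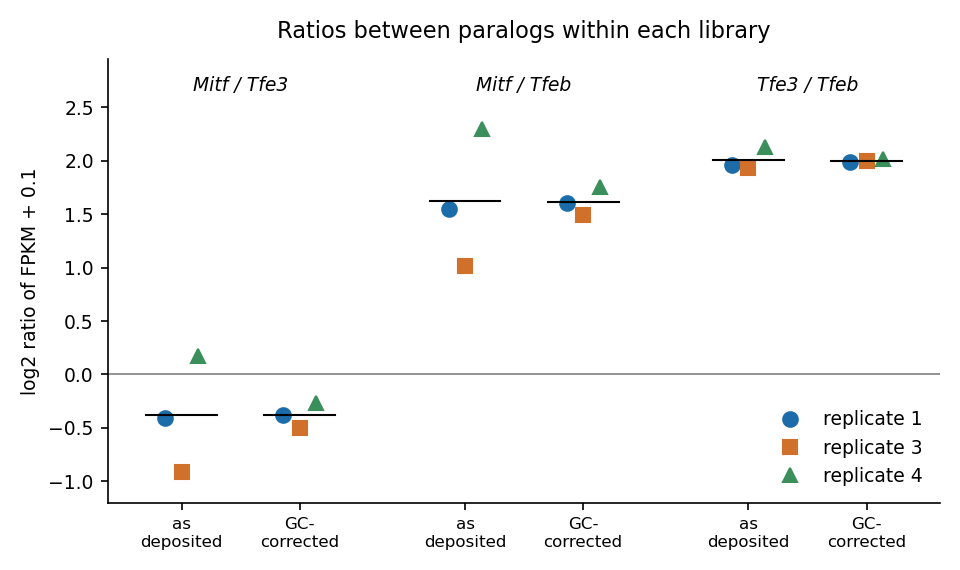
Log2 ratio of FPKM + 0.1 (y axis) for 3 pairs of paralogs in each replicate (points), with the mean (line), as deposited and after division by the median deviation of genes of like GC content. The 3 points of *Mitf* to *Tfe3* spread from -0.92 to 0.17 as deposited and from -0.50 to -0.27 after correction. Their mean is -0.38 in both, which the correction nearly keeps by construction.

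The spread of the members was set against all 10011 genes at 1 FPKM or more. The SD of log2(FPKM + 0.1) over replicates was 0.31 for *Mitf*, 0.24 for *Tfe3*, 0.34 for *Tfeb* and 0.52 for *Tfec*, beside a median of 0.16 over those genes. A smaller SD was found in 83.6%, 70.4%, 87.9% and 97.3% of the genes, in the same order. After the GC correction the shares were 42.2% for *Mitf*, 9.97% for *Tfe3*, 19.5% for *Tfeb* and 98.3% for *Tfec*. The 3 expressed members therefore ranked as variable genes in the deposited values and as average or steady ones after the correction. *Tfec* had a high share in both, although with 1 FPKM added before the log its share was 37.6%. The compared genes were all at 1 FPKM or more, while *Tfec* had an estimated 6 to 28 reads. Its shares therefore do not compare it with genes of its own level.

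The second property that moved the levels was the length by which reads were divided. The joined length of all annotated exons was taken as the authors' length, as the better match. With it, short genes with several transcripts lay at a mean distance of 0.124 reads from whole reads (47 values). With their longest transcript the distance was 0.229 reads. Genes with 1 transcript came closer than either (0.079 reads, 543 values). The check covered genes of at most 800 bases, so for the longer members the joined length is an assumption. For *Tfe3* this length is 9261 bases, of which 5625 (60.7%) belong only to transcripts not annotated as protein-coding, among them retained introns. For *Mitf* it is 6233 bases, with 902 (14.5%) of that kind, for *Tfeb* 5669 with 465 (8.20%), and *Tfec* has 1 transcript of 1779 bases. The annotation lists 10 transcripts of *Mitf*, 14 of *Tfe3* and 16 of *Tfeb*.

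Divided by the longest protein-coding transcript instead, of 4881 bases for *Mitf* and 3390 for *Tfe3*, the same reads gave 28.3 ± 5.98 FPKM for *Mitf*, 78.5 ± 12.7 for *Tfe3* and 17.3 ± 3.93 for *Tfeb* (SD, n = 3). *Tfe3* was then above *Mitf* in all 3 libraries, at 80.7 against 28.4, 89.9 against 22.2 and 64.9 against 34.2 FPKM. The mean log2 ratio of *Mitf* to *Tfe3* was -1.48 with this length. With the joined exons of protein-coding transcripts it was -1.50. A shorter length for *Mitf* worked the other way. With its shortest protein-coding transcript, of 1921 bases, *Mitf* came to 71.9 FPKM and the log2 ratio to -0.14 (exact sign-flip permutation test, p = 0.75). The mean log2 ratio of *Tfe3* to *Tfeb* was 2.19 with the longest protein-coding transcript and 3.23 with the joined exons of protein-coding transcripts. For *Mitf* to *Tfeb* it was 0.71 and 1.73 with these 2 lengths. All of these FPKM values keep every read of the gene, including any that fell outside the shorter model, so they are upper values. Which *Mitf* promoter or isoform the reads came from cannot be read from values per gene.

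**Figure D4:**
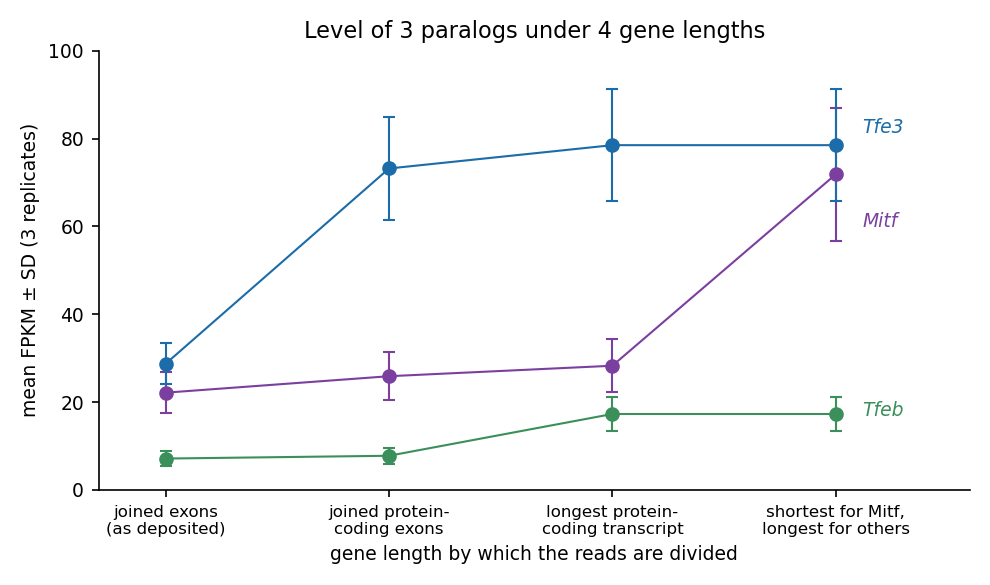
Mean FPKM ± SD over 3 replicates (y axis) of *Mitf*, *Tfe3* and *Tfeb* under 4 choices of gene length (x axis). The mean of *Tfe3* lies above that of *Mitf* at all 4 choices, although as deposited *Mitf* was the higher gene in replicate 4. The means are 73.2 against 25.9 FPKM with joined protein-coding exons and 78.5 against 71.9 FPKM with the shortest *Mitf* transcript. The mean of *Tfeb* is lowest at each.

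The genes known to control *Mitf* transcription were mostly present. Of 11 listed regulators, 9 were at 1 FPKM or more in every replicate (81.8%), against 44.1% of all genes. The median over the means of the 11 was 6.72 FPKM, beside a median of 0.28 over all genes. *Sox10*, which encodes a neural crest factor that activates the melanocyte promoter of *Mitf*, was at 496.68, 535.48 and 371.56 FPKM in replicates 1, 3 and 4, far above *Mitf* itself in each. *Ctnnb1* (beta-catenin) averaged 174.2 FPKM and *Pax3*, the paired-box partner of SOX10 at that promoter, 33.1. *Creb1*, which encodes the factor that binds the cAMP response element printed above, averaged 5.27 FPKM, and *Lef1*, which encodes the partner of beta-catenin, 6.72. *Foxd3*, whose protein the study's introduction gives as a repressor of *MITF*, was at 17.28, 19.21 and 11.79 FPKM in replicates 1, 3 and 4. Those below 1 FPKM were *Sox9* (0.16) and *Pou3f2* (0.19).

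Among 10 genes of kinases and other proteins known to modify MITF, 7 were at 1 FPKM or more, against 44.1% of all genes. *Mapk3* averaged 295.7 FPKM and *Gsk3b* 15.8. *Kit*, which encodes the receptor upstream of the MAP kinases, was at 0.67, 0.59 and 0.78 FPKM, below *Mitf* in every library, and *Rps6ka1* (0.72) and *Usp13* (0.057) were also under 1 FPKM.

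Most of the genes that set where TFEB and TFE3 lie in the cell were present, those that retain them in the cytoplasm and those that release them, such as calcineurin, together. Found were 27 genes for mTORC1, the Rag GTPases, folliculin, calcineurin and the proteins that bind phosphorylated TFEB. Of these, 26 were at 1 FPKM or more (96.3%), against 44.1% of all genes. The median of the 27 was 29.3 FPKM. The highest were *Ywhae* (427.5 FPKM), *Lamtor1* (161.7) and *Ywhab* (98.2). The Rag GTPases recruit TFE proteins as heterodimers of RagA or RagB with RagC or RagD. *Rraga* was at 42.39, 38.47 and 43.52 FPKM, against 0.03 in all 3 libraries for *Rragb*. *Rragc* averaged 36.0 FPKM and *Rragd*, itself a target of the family, 1.55. Folliculin, which acts on RagC and RagD, is encoded by *Flcn* (9.13 FPKM), and its partners by *Fnip1* (5.12) and *Fnip2* (4.19).

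Targets of both branches were detected. The counts below stand beside the 44.1% of all genes at 1 FPKM or more in all 3 replicates. Of 17 pigment cell genes known as MITF targets, 16 were at 1 FPKM or more (94.1%), with a median of 65.5 FPKM. *Tyrp1* averaged 3144 FPKM, *Dct* 1412 and *Gpnmb*, a melanosomal and lysosomal membrane glycoprotein gene that answers to MITF, TFE3 and TFEB, 1216. *Trpm1* was the gene below the limit, at 0.59 FPKM. Of 35 lysosomal and autophagy genes of the TFEB network, 34 were at 1 FPKM or more (97.1%), with a median of 35.6 FPKM, led by *Ctsd* (918.1), *Ctsb* (592.1) and *Lamp1* (497.8). The gene below was *Atp6v0d2* (0.44 FPKM), a V-ATPase subunit gene known from osteoclasts. Of 10 survival, cycle and metabolic targets of MITF, 8 reached the limit, with *Cdkn1a* (323.0), *Tbx2* (69.4) and *Cdk2* (51.1) the highest. *Ppargc1a* averaged 0.57 FPKM and *Birc7* was listed at 0 in all 3 libraries. With 1 condition, levels do not show which of these genes depend on a member of the family.

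Other basic helix-loop-helix leucine zipper factors that recognise the E-box reached levels like those of the family. Of 18 listed, 15 were at 1 FPKM or more, against 44.1% of all genes. The median of the 18 was 12.2 FPKM. The highest were *Mxd4* (68.3), *Srebf2* (67.6) and *Srebf1* (44.9). *Usf2*, which encodes an upstream stimulatory factor, was at 29.82, 33.26 and 20.65 FPKM. *Usf1* averaged 7.91. Under 1 FPKM were *Mycn* (0.42), *Mycl* (0.013) and *Mlxipl* (0.010). Over the 3 replicates, by Euclidean distance of log2(FPKM + 0.1), *Usf2* was the nearest of 166 listed genes to *Tfe3* (distance 0.20), *Lamtor3* the nearest to *Mitf* (0.18) and *Ctsf* the nearest to *Tfeb* (0.31). Next came *Mcoln1* for *Tfe3*, *Cdkn2a* and *Atp6v1h* for *Mitf*, and *Lef1* and *Usf1* for *Tfeb*. With 3 libraries of 1 condition this likeness is one of level.

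Because the family also serves other cell types, markers of those types were read in the same libraries. Over all genes, 44.1% were at 1 FPKM or more in all 3 replicates. Of 8 melanocyte markers, 7 were at 1 FPKM or more, and *Kit* was the exception. None of 6 mast cell markers reached 1 FPKM, with 5 at 0 in all libraries and a summed level of 0.03 to 0.08 FPKM. None of 6 osteoclast markers did either, with a summed level of 0.15 to 0.21 FPKM and *Calcr* at 0. For macrophages, a known site of *Tfec* expression, 1 of 6 markers was at 1 FPKM or more in all libraries, *Lyz2* at 12.81, 12.46 and 13.42 FPKM in replicates 1, 3 and 4. *Cd68* was at 1.2, 0.76 and 1.6 FPKM, lowest in replicate 3 and highest in replicate 4 as were *Tfec* and *Mitf*. *Csf1r* was at 0.01 to 0.02 FPKM and *Adgre1* at 0 to 0.01 FPKM, both highest in replicate 3. *Ptprc* and *Itgam* were at 0, and the 6 markers summed to 13.25 to 15.03 FPKM. For the retinal pigment epithelium, 1 of 6 markers reached the limit (*Rlbp1*, 1.11 FPKM), *Otx2* was at 0 and *Rpe65* at 0.04 to 0.06 FPKM, with a summed level of 1.27 to 1.32 FPKM. The part of these cell types in the level of *Tfec* was not tested.

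Of the other skin lineages, none of 6 keratinocyte markers and 1 of 6 fibroblast markers (*Col1a1*, 1.54 FPKM) reached 1 FPKM, with summed levels of 0.36 to 0.70 and 1.53 to 1.87 FPKM. Against 44.1% of all genes, 4 of 6 Schwann cell markers did, among them *Cdh19* at 26.66, 15.17 and 42.01 FPKM. Their summed level of 101.7 to 180.2 FPKM was lowest in replicate 3 and highest in replicate 4, as were *Mitf* and *Tfec*. The part of this in the levels of those 2 members was not tested.

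**Figure D5:**
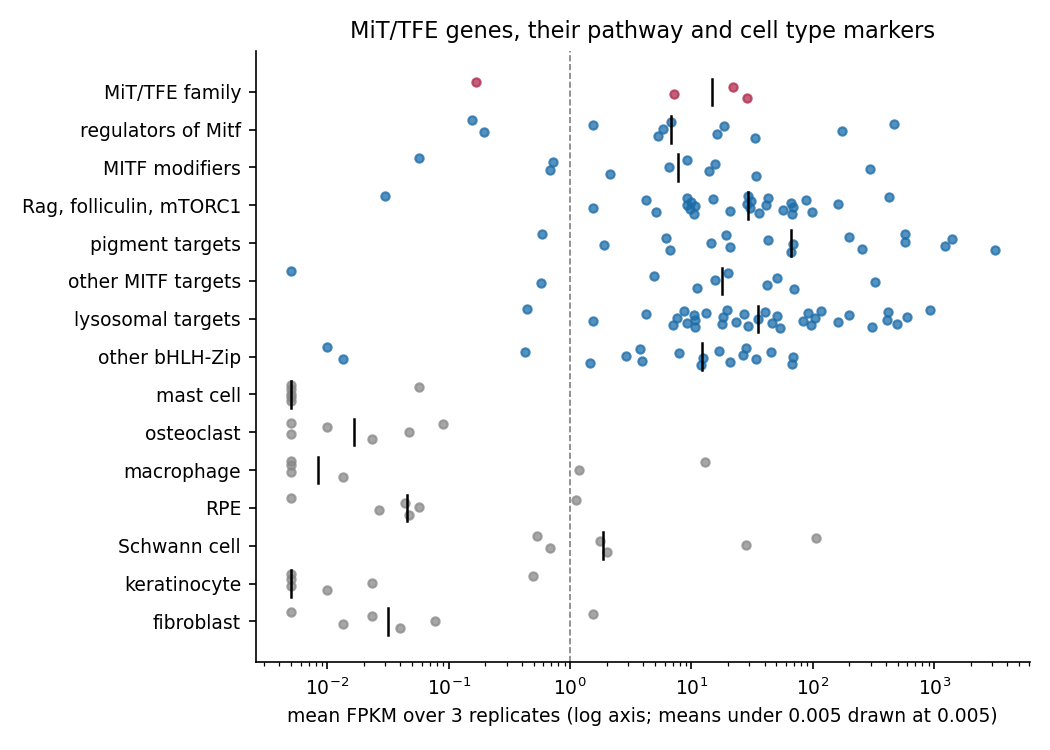
Mean FPKM over 3 replicates (x axis, log scale, means under 0.005 drawn at 0.005) of each gene (points) in the MiT/TFE family, in the lists of its pathway and in markers of other cell types, with the median of each list (vertical bar) and 1 FPKM (dashed line). The medians of the pathway and target lists lie between 6.72 and 65.5 FPKM, and those of 7 lists of other cell types at or below 1.88 FPKM.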

How the data were processed

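RNA-seq of untreated melan-a cells was analysed in 3 replicates. According to the study's methods and the labels, stranded mRNA libraries were sequenced, 10 bases were trimmed from read starts, reads were aligned to mm9 with STAR 2.3.0e and cleared of rRNA, and genes of Ensembl release 67 were counted with HTSeq 0.5.3p3. The deposited values are FPKM with TMM scaling, given by the authors to 2 decimals. The conversion to FPKM, the gene length and the strand setting of the counting are not given in the sources used here. No raw counts were used, so no count model was fitted, and 1 condition allows no comparison of groups. P-values measure only the spread between these 3 replicates of 1 line, for which the labels give no separate derivation.

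Symbols, exons and transcript GC content came from the GENCODE annotation of Ensembl release 65 on the same build, which holds 22324 of the 22698 genes. Of 172 listed genes, 170 were found, 12 of them by synonym, and the other 2 matched more than 1 identifier. No exon of another annotated gene overlapped the exons of a member. Sums per replicate were 358891 to 394507 FPKM. Scaled library sizes of 53900000, 47000000 and 66200000 reads in replicates 1, 3 and 4 were estimated from short genes with 1 transcript (52, 51 and 62 genes of at most 400 bases), whose values fall on whole reads. Together with the joined exon length, they turned FPKM into estimated reads.

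Ratios were taken on log2(FPKM + 0.1) within replicates and tested by an exact two-sided sign-flip permutation test with Benjamini-Hochberg adjustment over 6 pairs. The GC correction divides each replicate by the median ratio to the mean of replicates in 20 bins of GC content. Members and lists were chosen with earlier results of these data known. The text names the 4 members, the 3 highest genes of each pathway or target list, genes below 1 FPKM, named steps of the pathway and the 3 listed genes nearest to each expressed member, except for a few genes that are not reported here. *Rraga*, *Foxd3*, *Cdkn2a* in its link to the genotype, and the choice among markers were added after their values were seen. Alternatives were other pseudocounts, minimums, gene lengths and scalings, the median, the GC correction and each replicate left out. The code was tested on simulated data and used matplotlib 3.10.9, statsmodels 0.14.6, scipy 1.17.1, pandas 2.3.3 and numpy 2.4.6 under Python 3.11.15.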

Additional observations from a re-analysis of the deposited data

How the results depend on the processing

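All 6 ratios between paralogs kept their sign under every alternative run, and none could pass a threshold of 0.05 with 3 replicates. Leaving out 1 replicate at a time gave a log2 ratio of *Mitf* to *Tfe3* between -0.66 and -0.12. Rescaling each replicate to a sum of 1000000 changes the unit and gave 59.2 for *Mitf*, 75.9 for *Tfe3*, 18.8 for *Tfeb* and 0.449 for *Tfec*, with unchanged shares. With the longest protein-coding transcript the levels were 28.3, 78.5 and 17.3 FPKM for *Mitf*, *Tfe3* and *Tfeb*, and the shares of the family sum 23.2% for *Mitf* and 62.9% for *Tfe3*. The other 2 lengths were chosen after seeing the data. Joined protein-coding exons gave 73.2 FPKM for *Tfe3* and shares of 24.5% for *Mitf*, 68.1% for *Tfe3* and 7.21% for *Tfeb*, and the shortest transcript for *Mitf* gave 71.9, 78.5 and 17.3 FPKM and a *Tfec* share of 0.099%. The GC correction left all levels within 1 SD, as it nearly keeps means over replicates by construction. It moved the percent of genes with a smaller spread to 42.2 for *Mitf*, 9.97 for *Tfe3* and 19.5 for *Tfeb*. A pseudocount of 1 moved that of *Tfec* to 37.6.

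Counts of pathway and target genes at the minimum stayed within 1.5 times. Of the short marker lists, any value above 0 gave 1 mast cell, 3 osteoclast, 3 macrophage, 5 retinal pigment epithelium, 1 keratinocyte and 4 fibroblast genes. A minimum of 5 FPKM gave 0 retinal pigment epithelium, 0 fibroblast and 2 Schwann cell genes, and 2 macrophage genes reached the minimum at 0.5 FPKM or after rescaling. Leaving out 1 replicate gave 1 to 2 macrophage genes. No paired analysis was possible because there is 1 group. Depth limits *Tfec* alone among the members.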
